A study of Homo sapiens with 5 samples.

Results

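The proteasome genes examined here are those whose symbol begins with PSMA, PSMB, PSMC, PSMD or PSME and a digit, taken from probe sets annotated with that symbol alone. On the arrays 44 genes on 84 probe sets met this rule, of 19775 genes with such probe sets. A probe set was called measured where its signal passed a floor of 48.7 on at least 1 array. By that standard 41 of the 44 genes and 75 of their 84 probe sets were measured. Of the 84 probe sets, 72 passed the floor on all 5 arrays, 3 on some arrays and 9 on none. The name rule also takes in 7 genes on 15 probe sets that encode no subunit or activator, such as the antisense RNA PSMB8-AS1 and the recombination factor PSMC3IP. Without these, 37 subunit and activator genes remained, and 36 were measured. The 1 under the floor was PSMA8, the testis form of an alpha subunit.

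MonoMac6 is an established human line with monocytic features. RNA from 1 culture of each condition was read on 1 GeneChip array. The conditions were leukotriene B4 (LTB4), leukotriene C4 (LTC4), lipoxin A4 (LXA4) or lipoxin B4 (LXB4), each at 100 nM for 12 h from a DMSO stock, and unstimulated cells. The labels do not say whether the unstimulated culture received DMSO. These eicosanoids are lipid mediators made from arachidonic acid. LTB4 is a dihydroxy acid and LTC4 carries glutathione, while both lipoxins are trihydroxy acids that differ in the position of a hydroxyl group. With 1 array per condition no spread between cultures can be estimated, so every difference below compares arrays and carries no error and no test. Each difference from unstimulated cells uses the same unstimulated array. Where all stimulated arrays lie on 1 side of it, this may reflect that array alone and does not count as several agreeing results. A bulk signal also cannot tell fewer cells with a transcript from less of it per cell.

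The proteasome degrades ubiquitin-tagged proteins. Its 20S core is a barrel of alpha and beta rings, and the 19S cap of ATPases and non-ATPase subunits recognises, unfolds and feeds in the substrate. Interferon-gamma induces 3 catalytic beta subunits, PSMB8, PSMB9 and PSMB10, which take the places of PSMB5, PSMB6 and PSMB7 in new cores, and the activator subunits PSME1 and PSME2. This immunoproteasome alters the peptides cut for display on MHC class I, and monocytic cells hold it without stimulation.

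PSMB8 (chr6:32840717-32844679), PSMB9 (chr6:32854192-32859851), PSMB10 (chr16:67934506-67936850) and PSME1 (chr14:24136194-24138962) are placed by RefSeq on GRCh38.p14. Their promoters are shown because interferon is known to induce these genes through such elements. RefSeq promoter windows run from 250 bases before to 50 bases after a start, and 38 of 43 listed subunit and activator genes have one. The motif searched, on both strands, is GAAA, any 2 bases and a second GAAA. It was found in 4 of 5 immunoproteasome genes, in 2 of 26 constitutive subunit genes (PSMA4 and PSMB4) and in 4.38% of all 27305 genes with a window. Of the replaced subunits only PSMB5 has a window in the table, without a match. The match of PSMB8 lies in the second of its 2 windows. TAP1, which pumps peptides to MHC class I, has a pair of overlapping matches. The 30 bases about each match span chr6:32844032-32844061 for PSMB8, chr16:67936852-67936881 for PSMB10, chr14:24136189-24136218 for PSME1, chr14:24146619-24146648 for PSME2 and chr6:32853816-32853845 for TAP1. PSME1 is transcribed from the plus strand and the other 4 from the minus strand. The bases read as follows along the gene's strand, 5′ to 3′, with the match in capitals.
PSMB8: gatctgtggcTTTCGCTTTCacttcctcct
PSMB10: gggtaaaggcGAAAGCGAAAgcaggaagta
PSME1: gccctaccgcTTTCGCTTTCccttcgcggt
PSME2: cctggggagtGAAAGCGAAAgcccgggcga
TAP1: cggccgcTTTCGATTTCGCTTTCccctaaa

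In PSMB8, PSME1 and TAP1 the element stands on the strand opposite the gene, and in PSMB10 and PSME2 on the gene's own strand. PSMB9 has no match in its window, and its start lies 488 bases from that of TAP1, which is transcribed the other way. The 250 bases before the PSMB9 start (chr6:32853942-32854191, plus strand) are shown with a CCAAT box and a match to TGACNNNGC on the opposite strand, an antioxidant-response core, in capitals.
PSMB9: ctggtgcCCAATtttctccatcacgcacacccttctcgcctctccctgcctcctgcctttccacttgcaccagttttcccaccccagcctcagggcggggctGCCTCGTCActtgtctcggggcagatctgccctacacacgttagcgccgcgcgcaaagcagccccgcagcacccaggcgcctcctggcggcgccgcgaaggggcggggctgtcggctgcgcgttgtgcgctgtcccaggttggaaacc

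Other motifs were searched the same way. TGACNNNGC occurs in 3 of 5 immunoproteasome genes, 7 of 26 constitutive genes and 16.1% of all genes. The STAT site TTCNNNGAA occurs in 1 of 5, in 5 of 26 and in 9.38% of all genes. CCAAT occurs in 1 of 5, in 15 of 26 and in 39.7% of all genes. The NF-kappaB form, which is GGGA, any 2 bases and TTCC, is in none of either list and in 1.97% of all genes. A match describes the letters in a window only, and the arrays hold no measurement of binding.

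The immunoproteasome transcripts were bright on the unstimulated array and differed little on the stimulated ones. PSMB8, the induced counterpart of the chymotrypsin-like subunit, gave signals of 4798 with LTB4, 5474 with LTC4, 5129 with LXA4 and 4893 with LXB4, against 4909 in unstimulated cells. The LTC4 array was the highest for PSMB8 and the other 3 stimulated arrays lay on both sides of the unstimulated one. The log2 differences from unstimulated cells were -0.03, 0.16, 0.06 and 0.00 with LTB4, LTC4, LXA4 and LXB4, the order kept in every list of 4 differences below. PSMB9, the counterpart of the caspase-like subunit, gave 2370, 2304, 2569 and 2365 on the stimulated arrays in that order, against 2350.0 in unstimulated cells. Here LXA4 was the highest array and LTC4 the lowest, with differences of 0.01, -0.03, 0.13 and 0.01.

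PSMB10, the counterpart of the trypsin-like subunit, gave 2799, 3219, 2853 and 2939 on the stimulated arrays, against 2913 in unstimulated cells. Its LTC4 array was the highest and its LTB4 array the lowest, and the differences were -0.06, 0.14, -0.03 and 0.01. PSME1, a subunit of the PA28 ring that opens the core, gave 6391, 7074, 6287 and 6264, against 5846 in unstimulated cells. All 4 stimulated arrays lay above the unstimulated one for PSME1, by 0.13, 0.28, 0.11 and 0.10. Each of these 4 genes had 1 measured probe set, so no second probe set checks it. PSME2 has no probe set of its own among those with a single symbol and was not analysed here.

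The replaced catalytic subunits had a pattern led by LTC4. PSMB5, the chymotrypsin-like subunit (chr14:23025851-23035220), gave 6657, 8636, 7063 and 6498 on the stimulated arrays, against 6898 in unstimulated cells. The LTC4 array stood above the other 4, and the differences were -0.05, 0.32, 0.03 and -0.09. PSMB6, the caspase-like subunit (chr17:4796164-4798495), gave 3515, 4160.4, 3714 and 3673, against 3883 in unstimulated cells. Its LTC4 array was again the highest, at 0.10 above the unstimulated one, but this became -0.02 after quantile normalization. PSMB7, the trypsin-like subunit (chr9:124353465-124415442), gave 9228, 11173, 9634 and 9049, against 8689.9 in unstimulated cells. All 4 stimulated arrays lay above the unstimulated one for PSMB7, by 0.09, 0.36, 0.15 and 0.06.

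**Figure D1:**
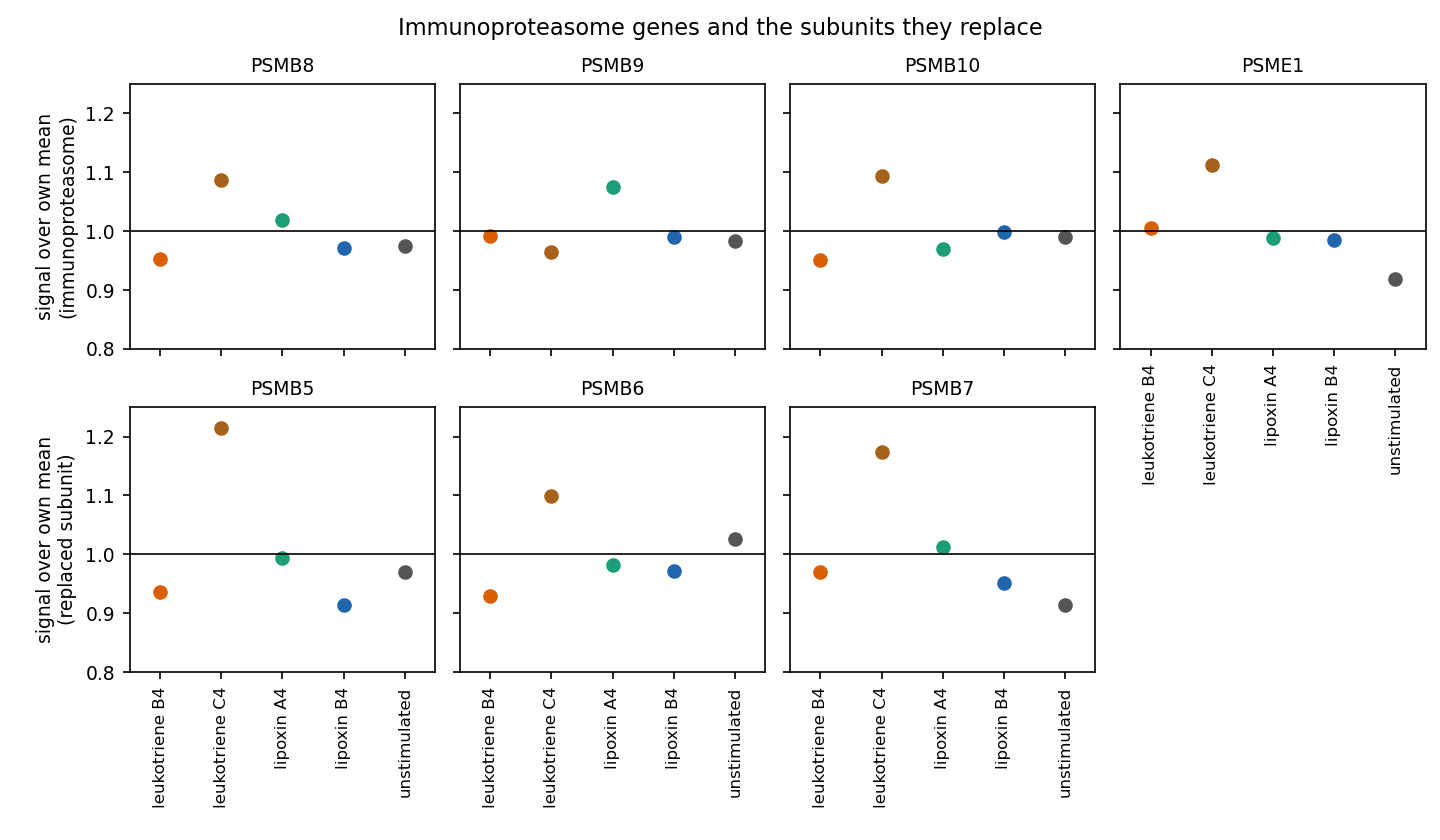
Signal of each gene on each of the 5 arrays divided by that gene's own geometric mean over the arrays (linear axis that does not start at 0), 1 point per array. PSMB8, PSMB9, PSMB10 and PSME1 are in the upper row and PSMB5, PSMB6 and PSMB7, below the subunit that replaces each, in the lower row; on these values, scaled by 1 factor per array, LTC4 is the highest in every panel but that of PSMB9, where LXA4 is.

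Set against the subunit it replaces, no immunoproteasome subunit gained ground on the LTC4 array. There the log2 difference of PSMB8 less that of PSMB5 was -0.17, that of PSMB9 less PSMB6 was -0.13, and that of PSMB10 less PSMB7 was -0.22. With LTB4 the same quantities were 0.02, 0.16 and -0.14. With LXA4 they were 0.03, 0.19 and -0.18, and with LXB4 they were 0.08, 0.09 and -0.05. The sign thus differed between pairs on the LTB4, LXA4 and LXB4 arrays, and none of the 12 values reached 1.2-fold. The share of replaced and induced subunits in the protein complex was not measured.

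Across lists, the 27 measured constitutive subunits had mean signals from 3456 to 16784. Because 27 of 27 lay over a signal of 1000, they are read beside the 5131 measured genes over that signal as well as beside all 15374 measured genes. The constitutive median differences were 0.02, 0.20, 0.03 and 0.06. Those of the 4 immunoproteasome genes were -0.01, 0.15, 0.08 and 0.01, and those of genes over 1000 were 0.06, 0.12, 0.05 and 0.05. All measured genes had medians of 0.00, 0.06, 0.00 and 0.00. LTC4 gave the highest median in both proteasome lists, and it also gave the highest median of the bright genes. The LTC4 median was 0.13 for genes with mean signals of 2000 to 5000 and 0.14 for those of 5000 to 20000. The LTC4 medians depended on scaling: after quantile normalization they were 0.08 for constitutive and 0.04 for immunoproteasome genes, beside 0.03 for genes over 1000. The constitutive median less that of genes over 1000 was 0.08 with 1 factor per array and 0.06 after quantile normalization, but 0.02 when probe sets shared between transcripts were left out. Leaving them out kept only 28 member genes and 3119 genes over 1000, with some members read from a dimmer probe set. With LTB4, LXA4 and LXB4 at least 1 of the list medians changed sign between scalings, so no direction is given for them.

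**Figure D2:**
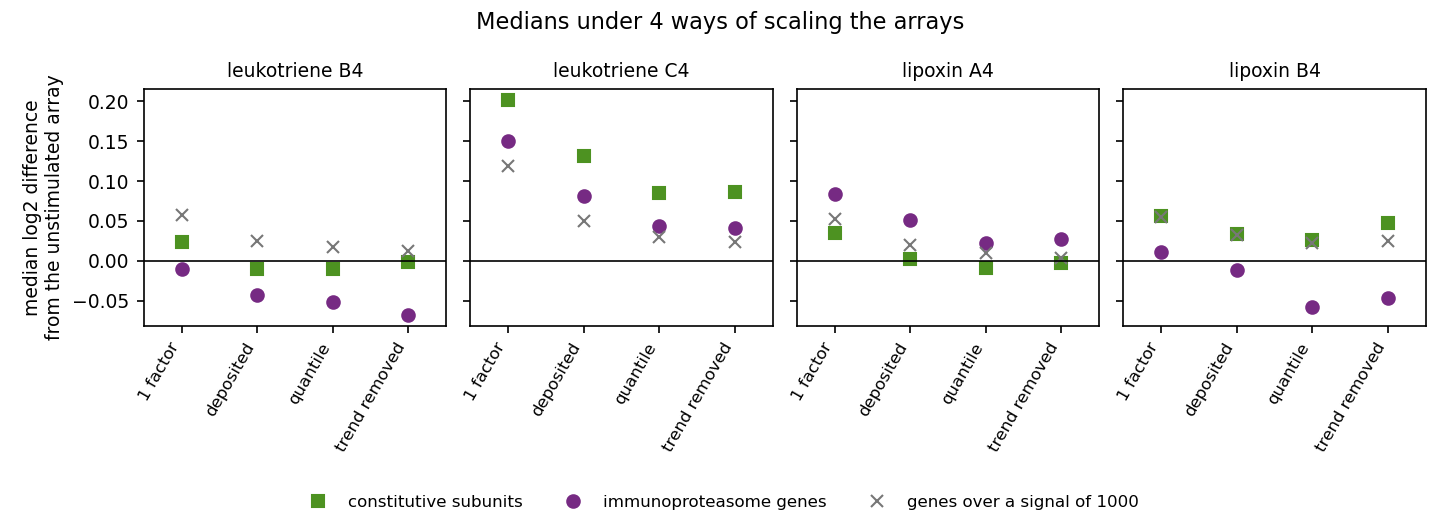
Median log2 difference from the unstimulated array (vertical axis) for 27 constitutive subunits, 4 immunoproteasome genes and the measured genes over a signal of 1000, with 1 panel per compound and 4 ways of scaling the arrays along the horizontal axis. The LTC4 medians are above 0 under all 4 scalings, and the constitutive one is 0.20 with 1 factor per array and 0.08 after quantile normalization.

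With 1 factor per array, counts over all 41 members past a fold were near or under the background. The count of constitutive subunits higher with LTC4 was above the background under that scaling. At least 1.2-fold higher with LTC4 were 10 of 41 member genes (24.4%), beside 21.4% of all measured genes and 17.2% of genes over 1000, and 1 was lower (PSMA3-AS1), beside 17.1% and 4.13%. Of the 27 constitutive subunits 9 were higher and 0 lower, beside the same shares. This depended on scaling: only 4 of the 41 members were higher on the values as deposited, and 2 after quantile normalization. The shares of all genes were not computed under these other scalings, so a count above the background was not tested there. With LTB4, 1 member was higher, beside 15.1% and 10.6%, and 2 were lower, beside 19.2% and 5.98%. With LXA4, 3 members were higher, beside 13.9% and 7.93%, and 0 were lower, beside 17.3% and 3.06%. With LXB4, 0 members were higher, beside 16.1% and 15.3%, and 1 was lower, beside 21.1% and 9.18%. On the brightest probe set no member reached 1.5-fold in any of these 4 comparisons. At that fold the background over all genes was 3.47%, 5.67%, 3.23% and 3.24% higher and 7.11%, 6.52%, 6.65% and 7.86% lower. Over genes above 1000 it was 0.273%, 0.487%, 0.234% and 0.624% higher and 0.682%, 0.624%, 0.156% and 0.838% lower, so a count of 0 among 41 is near this background. The widest spread over the 5 arrays was 1.45-fold (PSMC1) and the narrowest 1.06-fold (PSMA2). The median spread was 1.18-fold for constitutive and 1.15-fold for immunoproteasome genes, beside 1.21-fold for genes over 1000, of which 4.29% spread by at least 1.5-fold.

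**Figure D3:**
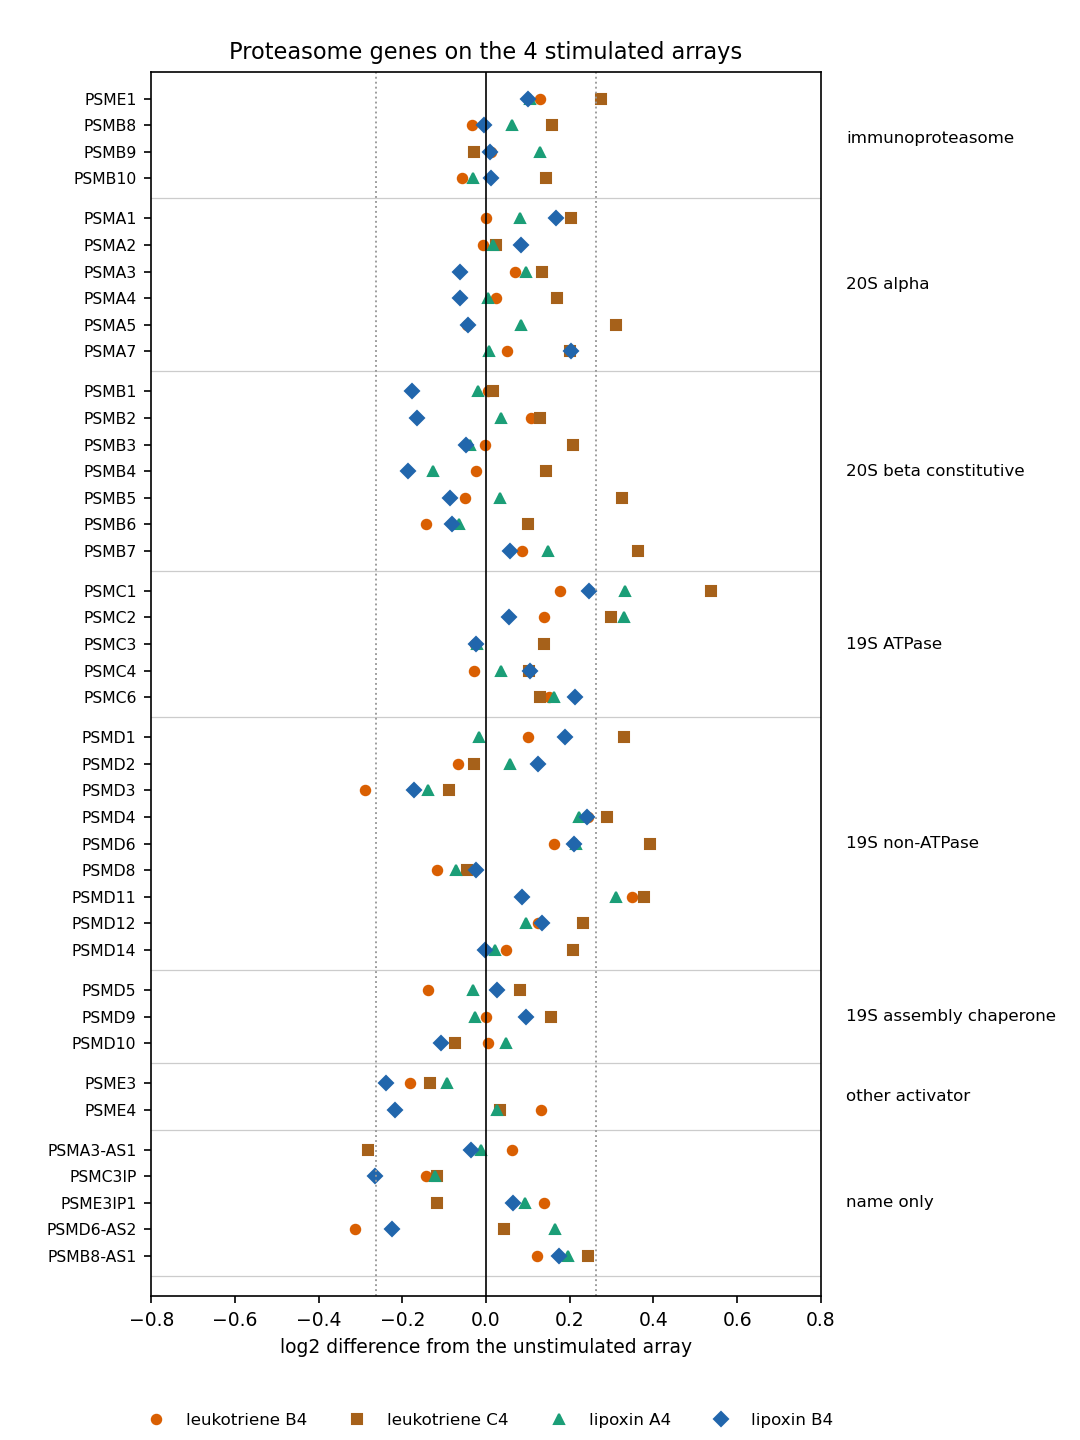
Log2 difference from the unstimulated array (horizontal axis) of the 41 measured member genes, on the brightest probe set of each and grouped by role; each symbol is 1 stimulated array and the dotted lines mark 1.2-fold. LTC4 squares lie to the right of the other symbols for most core and cap subunits, PSMC1 reaches 0.54, and PSMD3 lies left of 0 on all 4 arrays.

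In the core, the 6 measured alpha subunits, which form the outer rings and the gate, had median differences of 0.01, 0.19, 0.05 and 0.02. The largest single one was that of PSMA5 with LTC4. PSMA5 gave 4884, 6251, 5340 and 4890 on the stimulated arrays, against 5041 in unstimulated cells, which is -0.05, 0.31, 0.08 and -0.04. The 7 constitutive beta subunits had medians of 0.00, 0.14, -0.02 and -0.09. The 1051 genes with mean signals of 5000 to 20000 had medians of 0.05, 0.14, 0.05 and 0.00. How often each array was the highest was not counted for those genes. The LTC4 array was the highest of the 5 for 7 of 7 beta subunits, beside 42.6% of genes over 1000, and for 4 of 7 after quantile normalization, beside 26.3%. The LXB4 array was the lowest for 5 of 7, beside 23.6%, for 3 of 7 after quantile normalization and for 1 of 7 with the trend removed. PSMB4, a structural beta subunit, gave 15261, 17160, 14229 and 13655, against 15525 in unstimulated cells. PSMB1, another structural beta subunit, gave 16445, 16572, 16165 and 14492, against 16388 in unstimulated cells. For PSMB4 and PSMB1 the LXB4 array was the lowest, at -0.19 and -0.18 from unstimulated. After quantile normalization these were -0.10 and -0.09, and with the trend of differences with signal removed -0.05 and -0.04. For PSMB4 the LXA4 array was then the lowest under both, at -0.14 and -0.13. For PSMB1 the LXB4 array stayed the lowest after quantile normalization, but LTC4 was the lowest with the trend removed, at -0.10. Their second probe sets had -0.12 for PSMB4 and -0.22 for PSMB1 on that array. A bacteriophage control transcript added at hybridisation, cre, was also lower on the LXB4 array, at -0.38 from unstimulated, beside -0.07, -0.03 and -0.13 on the other 3, and its part in these values was not tested.

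In the 19S cap the 5 measured ATPases, the motor that unfolds substrates, had medians of 0.14, 0.14, 0.16 and 0.10. PSMC1 (chr14:90256553-90275429), whose tail helps open the core, gave 4873, 6263, 5429.7 and 5112 on the stimulated arrays, against 4313 in unstimulated cells. All 4 stimulated arrays lay above the unstimulated one, with differences of 0.18, 0.54, 0.33 and 0.25. On quantile-normalized values the 4 differences of PSMC1 remained above 0, at 0.12, 0.42, 0.26 and 0.19. PSMC2, another ATPase, gave 8749, 9780, 9983 and 8264, against 7949 in unstimulated cells. Its brightest probe set was higher on all 4 stimulated arrays, by 0.14, 0.30, 0.33 and 0.06, while the next brightest gave -0.20, 0.04, -0.03 and -0.03 and the dimmest 0.08, -0.03, 0.19 and 0.27. PSMC6, also an ATPase, gave 8044, 7920, 8111 and 8396, against 7244 in unstimulated cells, and was the only ATPase lower with LTC4 than with LTB4.

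The 9 measured non-ATPase subunits had medians of 0.10, 0.23, 0.06 and 0.12 and held the lowest difference of the constitutive genes with LTB4, LTC4 and LXA4, that of PSMD3. PSMD11 (chr17:32444510-32483319), a lid subunit that braces the lid against the base, gave 4470.5, 4561, 4354 and 3727, against 3513 in unstimulated cells. The LTB4, LTC4 and LXA4 arrays stood together above the LXB4 and unstimulated arrays, and the differences were 0.35, 0.38, 0.31 and 0.09. A dim PSMD11 probe set gave 137, 132, 167 and 120, against 61.9 in unstimulated cells, with the same direction and larger differences of 1.15, 1.09, 1.43 and 0.95. PSMD6, a lid subunit, gave 6075, 7125, 6301 and 6276, against 5427 in unstimulated cells, so that all 4 stimulated arrays were above it, by 0.16, 0.39, 0.22 and 0.21. PSMD4, a ubiquitin receptor, gave 6733, 6951, 6638 and 6721, against 5690 in unstimulated cells. The differences of that PSMD4 probe set were 0.24, 0.29, 0.22 and 0.24, but its next brightest one gave 0.05, 0.08, -0.05 and -0.11 and the third -0.08, 0.09, -0.10 and -0.11.

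PSMD3 (chr17:39980807-39997959), a lid subunit, was the lowest of the lid genes relative to unstimulated cells. It gave 3110, 3577, 3455 and 3374 on the stimulated arrays, against 3802 in unstimulated cells, with differences of -0.29, -0.09, -0.14 and -0.17. All 4 stimulated arrays lay below the unstimulated one, and this held under each of the 3 other scalings. PSMD8, another lid subunit, gave 6928, 7275, 7151 and 7385, against 7513 in unstimulated cells, and was likewise lower on all 4 arrays by at most 0.12 on the log2 scale. Of the 3 chaperones that assemble the cap base, PSMD9 had its largest difference with LTC4, at 0.15, PSMD5 with LTB4, at -0.14, and PSMD10 with LXB4, at -0.11. With LTC4, PSMD10 had -0.07. A second PSMD10 probe set gave 0.27, 0.16, 0.14 and 0.14, the opposite sign with LTC4 and with LXB4.

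The remaining activators do not belong to the interferon-induced set. PSME3, the nuclear PA28 form, gave 3144, 3252, 3345 and 3024, against 3567 in unstimulated cells, with differences of -0.18, -0.13, -0.09 and -0.24. A second PSME3 probe set was lower on all 4 arrays as well, at -0.28, -0.30, -0.41 and -0.50. The other 2 PSME3 probe sets gave -0.15, 0.08, -0.01 and -0.29, and 0.12, 0.04, 0.01 and -0.03. PSME4, the large single-chain activator PA200, gave 1742, 1626, 1618 and 1366, against 1589 in unstimulated cells. The LTB4 array was the highest and the LXB4 array the lowest for PSME4, at 0.13 and -0.22 from unstimulated, while its other probe sets had 0.30 and 0.35 with LTB4 and -0.33 and 0.19 with LXB4.

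Probe sets of 1 gene often disagreed at this size of difference. Of the 17 subunit and activator genes with several measured probe sets, both signs occurred in 10 with LTB4, 6 with LTC4, 11 with LXA4 and 7 with LXB4. PSMA2 shows the gap between a bright and a dim probe set. The bright one gave -0.01, 0.02, 0.02 and 0.08 and the dim one 0.28, 0.51, 0.28 and 0.40. A dim probe set of PSMB4 gave 0.28, 0.65, 0.34 and 0.40, where its brightest gave -0.02, 0.14, -0.13 and -0.19.

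**Figure D4:**
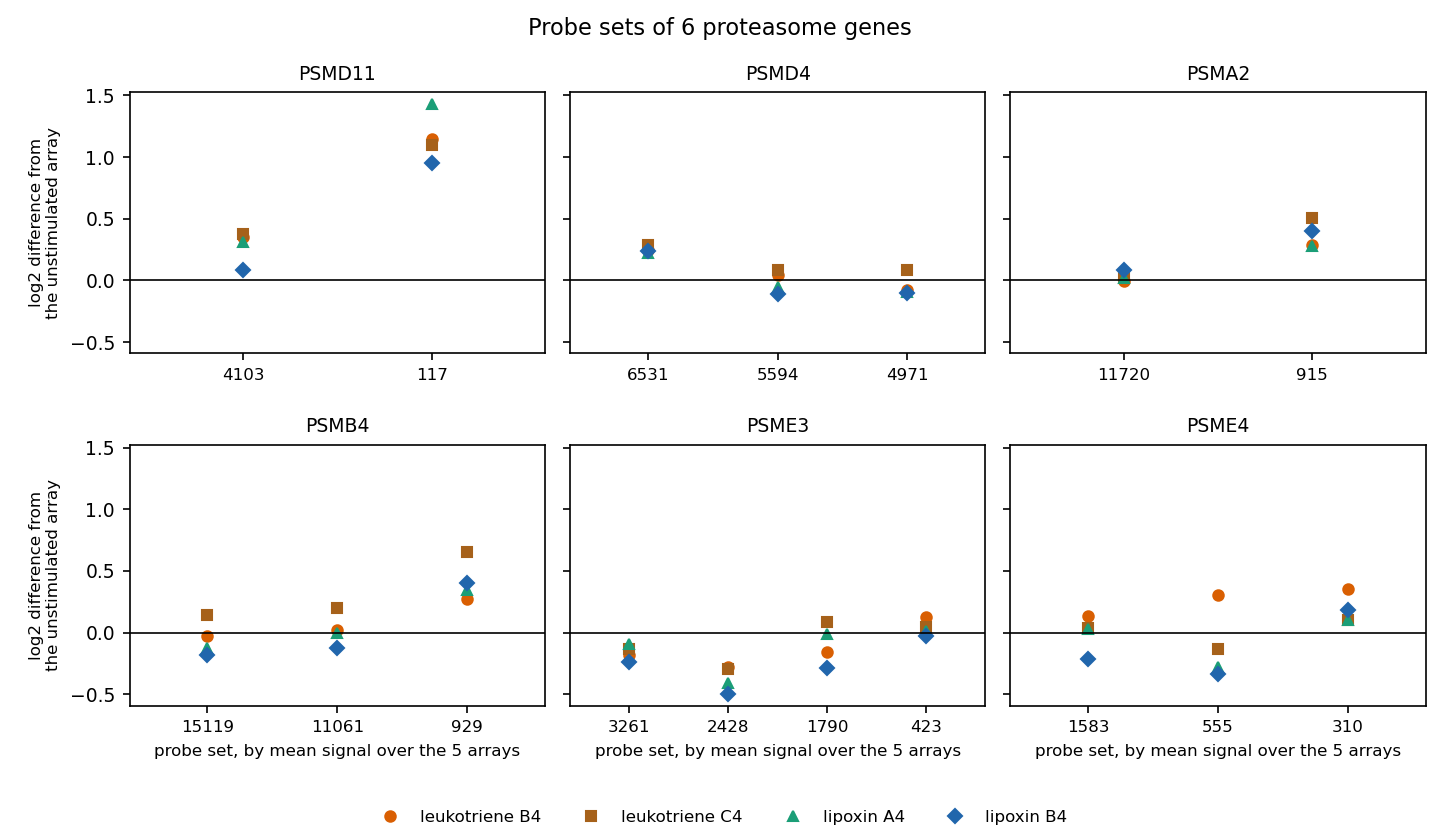
Log2 difference from the unstimulated array (vertical axis) of every measured probe set of 6 genes, labelled along the horizontal axis by its mean signal over the 5 arrays; each symbol is 1 stimulated array. The dim PSMD11 probe set lies between 0.95 and 1.43 and its bright one between 0.09 and 0.38, and the probe sets of PSME3 and PSME4 lie on both sides of 0.

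The compounds were set side by side in 3 comparisons at the same dose and time, with no test and no interval because each has 1 array. Constitutive subunits were higher with LTC4, the glutathione conjugate, than with LTB4, the dihydroxy acid: 26 of 27 differences were above 0, with a median of 0.16. Of genes over 1000, 3442 of 5131 (67.1%) were above 0, with a median of 0.07. The median was 0.06 for genes with mean signals of 2000 to 5000 and 0.09 for those of 5000 to 20000. The count was 22 of 27 on the values as deposited, beside 58.5% of genes over 1000, 20 of 27 after quantile normalization, beside 55.1%, and 19 of 27 with the trend removed, beside 55.5%. On the values scaled by 1 factor the exception was PSMC6, at -0.02, and the widest gap was that of PSMB5, at 0.38. At least 1.2-fold higher with LTC4 than with LTB4 were 4 constitutive genes (PSMA5, PSMB5, PSMB7 and PSMC1), beside 19.3% of all genes and 8.09% of genes over 1000. At that fold 0 were lower, beside 12.2% and 3.57%. After quantile normalization the median of the constitutive genes was 0.09, beside 0.02 for genes over 1000. PSMB8 and PSMB10 had differences of 0.19 and 0.20 between LTC4 and LTB4, and PSMB9 one of -0.04.

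The LTC4 array was the highest of the 5 for 19 of 27 constitutive subunits (70.4%), beside 42.6% of genes over 1000. After quantile normalization it was the highest for 11 of 27 (40.7%), beside 26.3%. On the values as deposited the LTC4 array was the highest for 15 of 27 (55.6%), beside 29.8%. With the trend removed it was so for 10 of 27 (37.0%), beside 25.4%. The LTB4 and LXB4 arrays were the lowest for 8 of 27 each (29.6%), beside 15.7% and 23.6% of genes over 1000. The LXA4 array was the lowest for 1, beside 11.1%, and the unstimulated array for 10 (37.0%), beside 41.7%. The unstimulated array was the highest for 2 of 27 (7.41%), beside 11.4%. After quantile normalization LTB4 was the lowest for 5 of 27 (18.5%), beside 18.4%, and LXB4 for 6 (22.2%), beside 21.1%. With the trend removed LTB4 was the lowest for 8 (29.6%), beside 19.2%, and LXB4 for 1 (3.70%), beside 19.4%. The lipoxins, which differ in the position of a hydroxyl group, were compared likewise. LXB4 less LXA4 had a constitutive median of -0.02, which turned to 0.02 after quantile normalization. PSMC2 was the only constitutive gene at least 1.2-fold lower with LXB4 than with LXA4, at -0.27, beside 14.7% of all genes and 6.57% of genes over 1000. At that fold 0 were higher, beside 11.3% and 4.31%. For 7 of 7 constitutive beta subunits LXB4 was below LXA4, beside 50.7% of genes over 1000, but only for 6 of 7 on the values as deposited and 5 of 7 under each of the 2 other scalings. The median of these 7 was -0.09, beside -0.05 for the 1051 genes with mean signals of 5000 to 20000. The lipoxin mean less the leukotriene mean had a constitutive median of -0.07, which became 0.01 once the trend of differences with signal was removed. With 2 arrays against 2, the smallest two-sided p an exact permutation test allows is 0.333, so no test was run.

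Genes that assemble or regulate the proteasome were measured for 21 of 23 listed. Their medians were 0.06, 0.17, 0.07 and 0.07, and none was 1.5-fold apart on the brightest probe set. POMP, the chaperone that completes the core, gave 18544, 21696, 18700 and 17055, against 18616 in unstimulated cells, with LTC4 the highest array and LXB4 the lowest. Its other probe set was higher on all 4 stimulated arrays, by 0.34, 0.18, 0.33 and 0.50.

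Genes that load MHC class I were measured for 16 of 18 listed, with medians of -0.01, 0.06, -0.03 and -0.09. TAP1 gave 1466, 1721, 1531 and 1453, against 1423 in unstimulated cells, and LTC4 was the highest array for it, at 0.27. TAP2, its partner in the pump, gave 1128, 1281, 1022 and 1077, against 1088 in unstimulated cells, also with LTC4 the highest, though its other probe sets gave -0.14 to 0.90 with LTC4. CALR, the chaperone calreticulin of the loading complex, gave 16664, 12209, 16864 and 13939, against 21019 in unstimulated cells. All 4 stimulated arrays were below the unstimulated one for CALR, and its other 2 probe sets had the same sign on all 4, from -0.29 to -1.45. ERAP2, which trims peptides, was 0.74 higher with LTB4 and 0.62 higher with LXB4 on its brightest probe set, but its other probe sets gave -0.11 to 0.38 on these arrays. ERAP1, a second trimming enzyme, was 0.69 higher with LXB4 on its brightest probe set, while its others gave -0.03 to 0.75.

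Monocytic markers were as the label has them in part. Of 10 listed, 8 had a probe set with a single symbol, and 6 passed the floor on all 5 arrays, with LYZ reaching 49119. Of these 6, CD14 (188 to 319), CSF1R (223 to 310) and ITGAM (127 to 178) were dim. CD4 passed the floor on 3 arrays, and FCGR1A was under it on all 5. T cell and epithelial markers passed the floor on all 5 arrays for 0 of 5 and 0 of 3 genes, with highest signals of 91.2 for CD5 and 64.2 for KRT5. B cell (2 of 3), erythroid (1 of 2) and fibroblast or endothelial (1 of 4) markers passed it on all 5 arrays, with highest signals of 168, 142 and 299. Summed over genes, the monocytic markers ranged from 42875 to 58194 between arrays, most of it LYZ. LYZ, the secreted enzyme lysozyme, had differences of -0.05, -0.01, -0.09 and -0.44, so the LXB4 array was the lowest for it. SPI1, a transcription factor of the myeloid lineage, gave 4630, 5683, 6157 and 5315 on the stimulated arrays, against 7471 in unstimulated cells. All 4 stimulated arrays lay below the unstimulated one for SPI1, by -0.69, -0.39, -0.28 and -0.49. CSF1R was also lower on all 4, at -0.40, -0.43, -0.03 and -0.47. Other markers had both signs: CD14 gave -0.25, 0.51, 0.00 and -0.20, and ITGAM -0.33, 0.08, 0.15 and 0.15. MPO gave -0.12, -0.16, -0.15 and 0.09. The part of these markers in the proteasome values was not tested. The 3′ to 5′ signal ratios of ACTB were 1.10 to 1.13 over the 5 arrays and those of GAPDH 0.996 to 1.06.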

How the data were processed

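Total RNA of 5 MonoMac6 cultures, 1 per condition and grouped by sample title, was measured on 1 array each. For each of 54675 probe sets the authors deposited 1 linear intensity per array. GCOS 1.4 was used, per the submitters' processing notes, with the signal algorithm not given in the sources used here. Without the highest and lowest 2%, the mean intensity was 499.9 on every array. The precision is limited by having 1 array per condition.

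Genes were named from the 41097 probe sets with 1 symbol in the platform annotation; 1801 carry several, 11777 are not listed, and 41043 matched the RefSeq gene table (GRCh38.p14), with 0 symbols altered. PSMA6 and PSME2 are listed only with another symbol, and PSMC5, PSMD7, PSMD13 and PSMB11 were not analysed here. Log2 signals were scaled by 1 factor per array to an equal median over the upper 50% of probe sets, and values under the floor (the 50th percentile, a signal of 48.7) were set to it. The factor was the highest for the LTC4 array, at 1.027, and the lowest for the unstimulated array, at 0.978. Each gene was read from its brightest probe set, by mean signal; signals in the text are scaled ones. A difference is log2 of stimulated over unstimulated, and 1.2-fold, 1.5-fold and 2-fold are sizes, not tests.

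Always named were the immunoproteasome genes, the subunits they replace, PSME3, PSME4, TAP1, TAP2 and POMP. Of other members, up to 3 each way per compound with the largest difference were named, and of related genes those at least 1.5-fold apart. PSMA2 and PSMA5, members counted by name, and the monocytic markers given with values were chosen after their values were seen. Members, lists and rules were chosen with earlier results of these data known. Alternatives were the values as deposited, quantile normalization, removal of the trend of differences with signal, floors at the 30th and 70th percentiles, averaging a gene's probe sets, and leaving out probe sets marked as shared between transcripts. Counts by highest or lowest array, and by sign between compounds, were recomputed under the other scalings as an addition chosen after seeing the data. The scaling and the recovery of set differences were checked on simulated data, but the counting was not. Python 3.11.15, numpy 2.4.6, pandas 2.3.3, statsmodels 0.14.6 and matplotlib 3.10.9 were used.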

Additional observations from a re-analysis of the deposited data

How the results depend on the processing

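Of 370 alternative values, 341 stayed within the limits used (0.1 on the log2 scale, 1.5 times for counts), 33 of them small values that changed sign, and 29 moved by more. Of these 29, 2 changed sign. Part of the 341 was fixed in advance. The floors at the 30th and 70th percentiles could not move the list medians or the single genes checked, which lie far over both floors. Averaging probe sets likewise could not move a gene with 1 measured probe set. The genes checked were the measured immunoproteasome genes, the subunits they replace, PSME3 and PSME4. Among these and the list medians, only PSMB5, PSMB7 and PSME1 with LTC4 reached 1.2-fold, and none of them changed sign. Each has 1 measured probe set, so only the scalings could move it. PSMB5 fell under 1.2-fold on the values as deposited, after quantile normalization and with the trend removed, at 0.25, 0.22 and 0.21. PSME1 did so too, at 0.21, 0.17 and 0.16. PSMB7 stayed past 1.2-fold on the values as deposited, at 0.29. It fell under it after quantile normalization, at 0.23, and with the trend removed, at 0.25. The LTC4 median of constitutive genes, 0.20, was 0.0845 after quantile normalization and 0.0857 with the trend of differences with signal removed; that of immunoproteasome genes, 0.15, was 0.0433 and 0.0417. The number of members at least 1.2-fold apart with LTC4, 11 (10 higher, 1 lower), was 5 on the values as deposited (4 and 1), 3 after quantile normalization (2 and 1) and 4 with the trend removed (3 and 1). With LXB4 the number, 1 (0 higher, 1 lower), was 2 after quantile normalization, 3 with the trend removed, 2 with the floor at the 30th percentile, 5 with the mean of all probe sets (2 and 3) and 2 without shared probe sets (2 and 0). With LXA4 the number, 3, was 5 with the floor at the 30th percentile, and with LTB4 the number, 3 (1 higher, 2 lower), was 5 without shared probe sets (3 and 2) and split 1 and 1 after quantile normalization. Leaving out shared probe sets also lowered the number of member genes measured to 28. The cause of the other moves was not tested. Shares of all genes past 1.2-fold were not computed under these alternatives, so the numbers have no background beside them. No paired analysis was possible because each condition has 1 array. Repeat cultures, a DMSO control and a second probe set for PSMB8, PSMB9, PSMB10 and PSME1 were not analysed here, and the spread between arrays of 1 condition is unknown.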
